A study of Mus musculus with 18 samples.

Results

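The level of 8 genes tied to the ST2-positive form of regulatory T (Treg) cells in tissues was followed across 6 body sites of the mouse. The genes were Il1rl1, which encodes ST2, Il1rap, Il18r1, Il18rap, Gata3, Klrg1, Nfil3 and Pparg, taken as a named list and matched by symbol. All 8 were found among the 55487 Ensembl gene IDs of the tables. Poly(A) RNA had been sequenced from CD4+ Foxp3+ Treg cells sorted fresh from lung, liver, bone marrow, lymph node, spleen and peripheral blood. Each site had 3 libraries, which made 18. Every group was wild-type and untreated, so the sites differ in no stated factor other than the organ. The labels give no age, no sex, no sorting gate and no number of animals per library, and they do not say whether the 3 libraries of a site came from separate mice, so the p-values below measure the spread between these libraries, which may be technical. Levels are in TPM (a transcript count normalised to length and scaled to a fixed library total), which allows a comparison between genes as well as between sites.

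ST2 is the receptor for interleukin-33, an alarm signal released by damaged barrier cells. It signals only together with the shared accessory chain that Il1rap encodes, through Myd88 and the Irak kinases towards NF-kappaB. Il18r1 and Il18rap encode the matching pair of chains for interleukin-18. Gata3 and Pparg are transcription factors that tissue Treg cells are known to use, Pparg above all in fat, Nfil3 is a basic leucine zipper factor found in effector Treg cells, and Klrg1 is an inhibitory surface receptor that marks terminally differentiated cells, among them many ST2-positive Treg cells.

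The label of the cells was checked on Foxp3, Il2ra, Ikzf2 and Ctla4, and all 4 markers had a mean above 1 TPM at every site, with Foxp3 between 85.4 and 240.34 TPM over the 18 libraries. RNA of other cells was present too and differed by site. The summed level of 10 neutrophil genes was 45435 to 45913 TPM in bone marrow and 17491 to 18630 TPM in peripheral blood, against 16.0 to 766 TPM in the other 12 libraries. The summed level of 6 erythroid genes was highest in liver, at 10931 to 11969 TPM, with 1426 to 6502 TPM in bone marrow, peripheral blood, spleen and lung and 72.7 to 75.4 TPM in lymph node. In lung, 4 genes of lung epithelium summed to 221 to 291 TPM, against at most 1.62 TPM in any other library, and most of that was Scgb1a1, the club cell secretory protein (mean 225 TPM). In liver, 5 hepatocyte genes summed to 5.10 to 17.9 TPM. The part of these cells in the results below was not tested. The summed level of 20 general T cell genes was lowest in peripheral blood, at 3375 to 3459 TPM, and highest in lymph node, at 7879 to 7934 TPM. TPM is a share of a library's RNA, so every comparison with peripheral blood was also made after scaling each library to these 20 genes. That scaling moved the median of all genes by 0.94 on the log2 scale between peripheral blood and lymph node, and by 0.2 between the pair liver and lung and the pair spleen and lymph node. In such bulk samples, fewer cells that carry a transcript and less of it per cell cannot be told apart.

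All 8 genes differed among the 6 sites in the limma F test with Benjamini-Hochberg adjustment over 16694 genes, where 68.0% of all genes tested were called. Liver and lung were set against spleen and lymph node, since this programme is known from non-lymphoid tissue. In that comparison 7 of the 8 genes were higher in liver and lung (16.3% of all genes tested were) and 0 were lower (29.3% of all genes tested were). The exception was Il1rap, with a log2 difference of 0.14 (SE 0.15, adjusted p = 0.475). With the T cell scaling 8 of the 8 were higher (24.1% of all genes tested were) and 0 were lower (15.6% of all genes tested were). The median log2 difference of the 8 genes was 2.06, beside -0.15 for all genes tested. For the same 7 genes, every liver and lung library lay above every spleen and lymph node library, which held for 5.22% of all genes tested. Over the 15 pairs of sites, 94 of the 120 gene and pair combinations were called, or 78.3%, beside 33.8% for all genes. The 8 genes were chosen with earlier results of these data known, so these shares describe them and are no independent test.

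**Figure D1:**
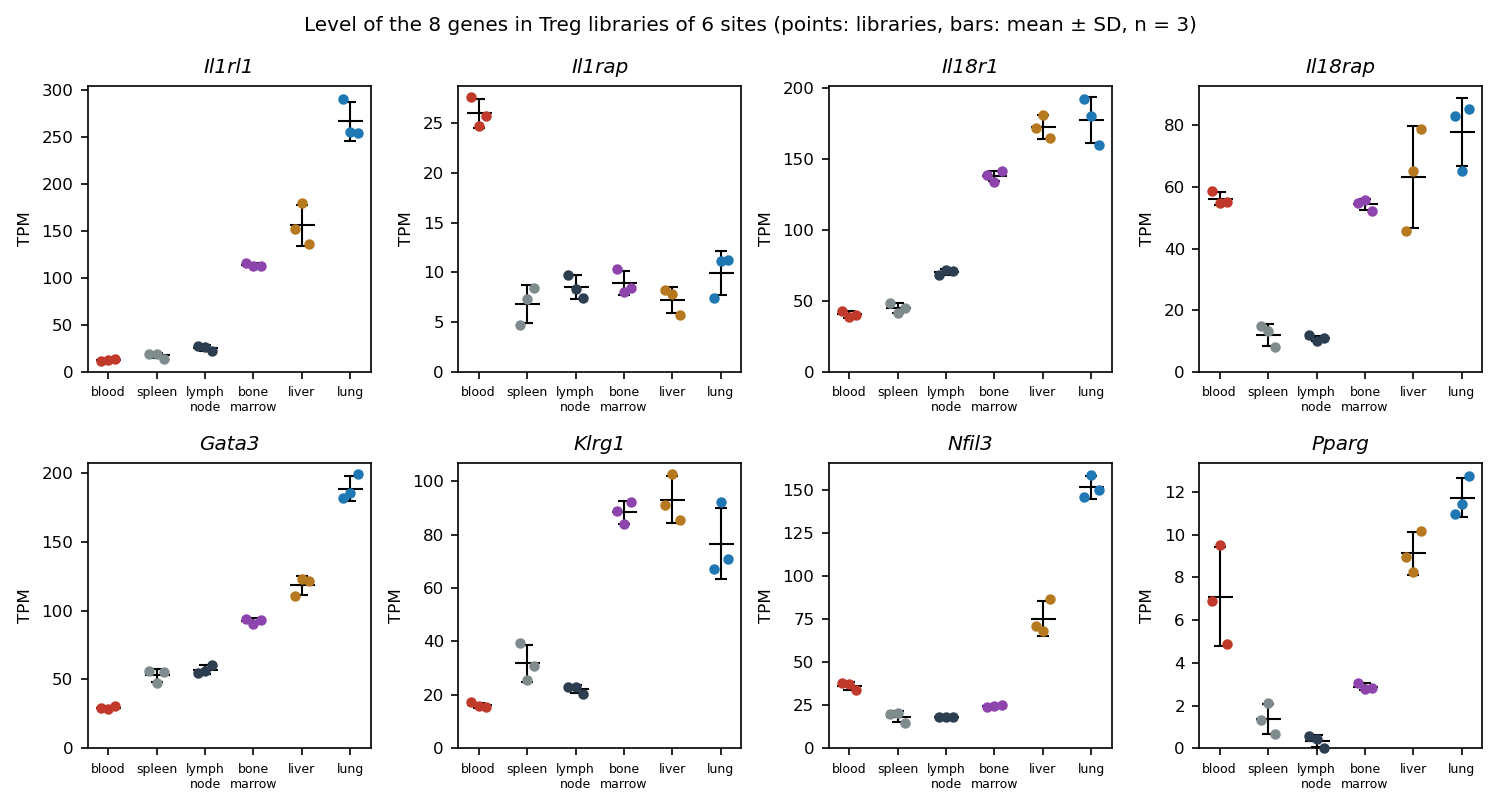
TPM of each of the 8 genes (vertical axis, from 0, a different range per panel) in the libraries of the 6 sites; points are libraries and the bars give mean ± SD, n = 3. Il1rl1 climbs from 12.5 TPM in peripheral blood to 266 TPM in lung, while Il1rap is highest in peripheral blood, at 26.0 TPM.

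The 8 genes did not share a single pattern. Il1rl1, Il18r1, Gata3 and Klrg1 had their lowest mean in peripheral blood and their 3 highest means in bone marrow, liver and lung. Il18rap, Nfil3 and Pparg were also high in liver and lung, but were higher in peripheral blood than in spleen and lymph node. Il1rap stood above the rest in peripheral blood alone. Described over the 18 libraries, which share the site differences in RNA makeup, log2(TPM + 1) of Il1rl1 correlated with that of Il18r1 at r = 0.979, of Gata3 at r = 0.958 and of Klrg1 at r = 0.915. The corresponding value of Il1rl1 with Nfil3 was 0.741, with Il18rap 0.636, with Pparg 0.566 and with Il1rap -0.389. Pparg correlated more closely with Il18rap, at r = 0.902, and with Nfil3, at r = 0.883.

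**Figure D2:**
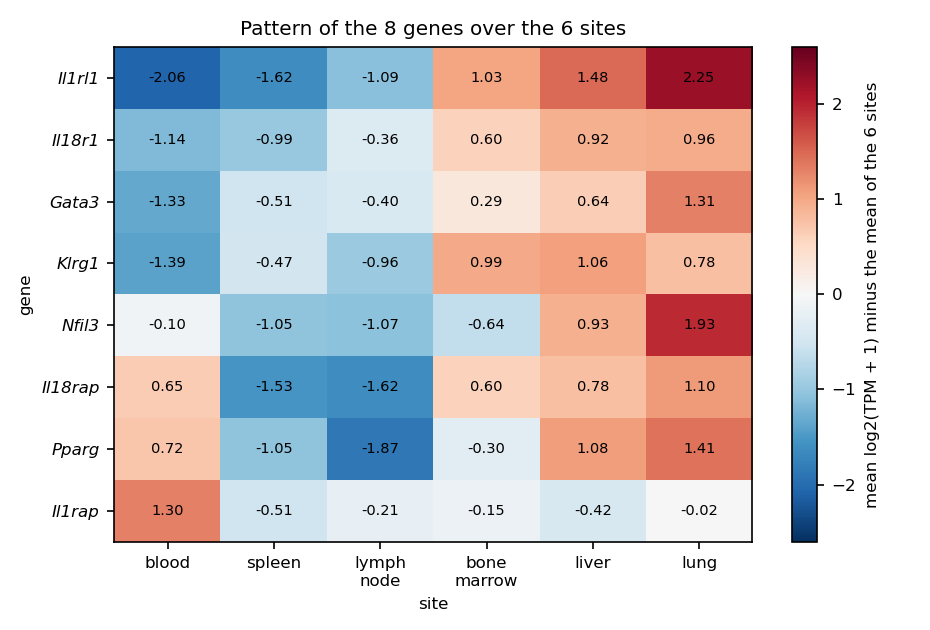
Mean log2(TPM + 1) of each gene (rows) at each site (columns), minus the mean of the 6 sites, with red above and blue below that mean. Il1rl1 runs from -2.06 in peripheral blood to 2.25 in lung, Il18rap and Pparg are above their own mean in peripheral blood (0.65 and 0.72), and Il1rap departs upwards only there, by 1.30.

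Il1rl1 (ENSMUSG00000026069) lies on chromosome 1 at 40429570 to 40465415 on the plus strand (GENCODE M21, GRCm38), in a row of 6 genes of the interleukin-1 receptor family that all read in the same direction over 477.6 kb. The order is Il1r2, Il1r1, Il1rl2, Il1rl1, Il18r1 and Il18rap. Il18r1 (ENSMUSG00000026070, 40465552 to 40500854) begins 136 bases after the end of Il1rl1, and Il18rap (ENSMUSG00000026068, 40515362 to 40551705) follows after a gap of 14507 bases. The 250 bases before the annotated starts of Il1rl1 and of Il18rap are shown because these neighbours are both high in liver and lung and differ in peripheral blood. They were read from RefSeq's promoter table (GRCm38.p6), and capitals mark matches to the letters GATAA or GATAG preceded by A or T, on either strand, the core that GATA factors such as Gata3 bind.
Il1rl1, chr1:40429320-40429569, plus strand: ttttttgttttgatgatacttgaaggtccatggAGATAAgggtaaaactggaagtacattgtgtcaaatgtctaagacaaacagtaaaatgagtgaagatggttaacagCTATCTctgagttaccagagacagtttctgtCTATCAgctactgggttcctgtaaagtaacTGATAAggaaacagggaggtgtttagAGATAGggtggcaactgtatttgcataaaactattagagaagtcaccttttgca
Il18rap, chr1:40515112-40515361, plus strand: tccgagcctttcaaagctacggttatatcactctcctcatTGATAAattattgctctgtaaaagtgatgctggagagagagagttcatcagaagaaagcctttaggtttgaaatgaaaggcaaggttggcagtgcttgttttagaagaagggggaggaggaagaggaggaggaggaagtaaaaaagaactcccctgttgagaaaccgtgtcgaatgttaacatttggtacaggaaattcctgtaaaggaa

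The Il1rl1 stretch held 5 such matches, of which the nearest to the start lay 49 to 54 bases before it and the farthest 212 to 217 bases before it. The Il18rap stretch held 1, at 205 to 210 bases before the start. Of 32851 promoter windows of the same length in the RefSeq table, 26.5% held at least 1 match, 1.35% at least 3, and 14 windows (0.0426%) at least 5. A second Il1rl1 start listed 10059 bases downstream had 1 match in its window. The 8 genes had 12 windows in the table, for 7 of the genes, and the 9 windows of the other genes and starts held 0 matches. The letters TTACGTAA that Nfil3 binds and the AP-1 letters TGACTCA were searched on both strands too. Among all windows 0.113% and 4.46% held them, and no window of the 8 genes did. Such matches describe letters in a window and are no measure of binding.

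Among the 7 genes with a mean above 1 TPM at every site, Il1rl1 had the widest range of site means. Its level was 11.49, 12.50 and 13.44 TPM in the peripheral blood libraries, 19.06, 18.99 and 14.08 TPM in spleen, and 27.62, 26.74 and 22.08 TPM in lymph node. Bone marrow had 116.13, 112.37 and 112.30 TPM, liver 151.55, 179.66 and 136.30 TPM, and lung 290.21, 254.98 and 254.03 TPM. No library overlapped with those of the neighbouring site in this order, and the largest step on the log2 scale lay between lymph node and bone marrow. The mean in lung, 266 ± 20.6 TPM (SD, n = 3), was 21.3 times that in peripheral blood, 12.5 ± 0.975 TPM (SD, n = 3). All 15 pairs of sites were called. The log2 difference between liver and lung and the secondary lymphoid pair was 3.22 (SE 0.09, adjusted p = 1.47e-13), and bone marrow exceeded lymph node by 2.12 (SE 0.13, adjusted p = 3.05e-09).

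The small steps at the lower end of the Il1rl1 order were less stable. Spleen exceeded peripheral blood by 0.44 (SE 0.13, adjusted p = 0.0134), but after scaling to the T cell genes it was lower, by -0.39 (adjusted p = 0.0258). That call was also lost without peripheral blood library 1, spleen library 1 or spleen library 2 (adjusted p 0.0585 to 0.0612). Lymph node exceeded spleen by 0.53 (adjusted p = 0.0101). That call was lost with the T cell scaling (0.23, adjusted p = 0.415), with median ratio scaling (0.35, adjusted p = 0.118) and with quantile normalization (0.39, adjusted p = 0.0671), and also without spleen library 3 or lymph node library 1 (adjusted p 0.0518 and 0.0535). Liver exceeded bone marrow by 0.44 (adjusted p = 0.0135), lost without liver library 2 (adjusted p = 0.0605), with library weights (0.45, adjusted p = 0.115) and with the T cell scaling (0.11, adjusted p = 0.564).

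Set against Foxp3 in the same library, a ratio that no scaling moves, Il1rl1 was 0.135 to 0.146 in peripheral blood, 0.102 to 0.145 in spleen and 0.0919 to 0.116 in lymph node. It was 0.747 to 0.785 in bone marrow, 0.917 to 1.21 in liver and 1.08 to 1.31 in lung. By this measure the sites fell into a low group of 3 and a high group of 3 with no library between 0.146 and 0.747, and peripheral blood no longer lay below spleen and lymph node. Il1rl1 is also a known transcript of mast cells, basophils and type 2 innate lymphoid cells. The summed level of 10 mast cell and basophil markers was 252 to 270 TPM in bone marrow, 130 to 143 TPM in peripheral blood, 28.4 to 30.4 TPM in lung, 7.81 to 13.9 TPM in spleen, 3.29 to 4.15 TPM in liver and 0.4 to 0.8 TPM in lymph node. In liver 6 of these 10, Mcpt8, Cpa3, Cma1, Tpsb2, Fcer1a and Prss34, were listed at 0 in all 3 libraries. The others, Hdc, Mcpt4, Gata2 and Ms4a2, averaged 2.613, 0.9533, 0.1267 and 0.05667 TPM there. Liver was also the shallowest site, where 1 read at 1 kb was worth 0.377 TPM. The 7 markers of type 2 innate lymphoid cells summed to 66.5 to 132 TPM in lung and 42.0 to 48.4 TPM in liver, against 4.30 to 30.5 TPM at the other 4 sites. Most of that sum was Calca, at 61.88 to 123.98 TPM in lung and 28.56 to 35.02 TPM in liver. In lung Il5, Il17rb and Kit averaged 1.2, 2.293 and 2.673 TPM, and Il13, Ptgdr2 and Arg1 were listed at 0 in all 3 libraries. In liver Il17rb, Kit, Il13, Il5 and Ptgdr2 averaged 7.497, 2.443, 1.793, 1.537 and 0.23 TPM, and Arg1 was listed at 0 in all 3 libraries. The part of mast cells, basophils and type 2 innate lymphoid cells in the Il1rl1 levels was not tested.

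**Figure D3:**
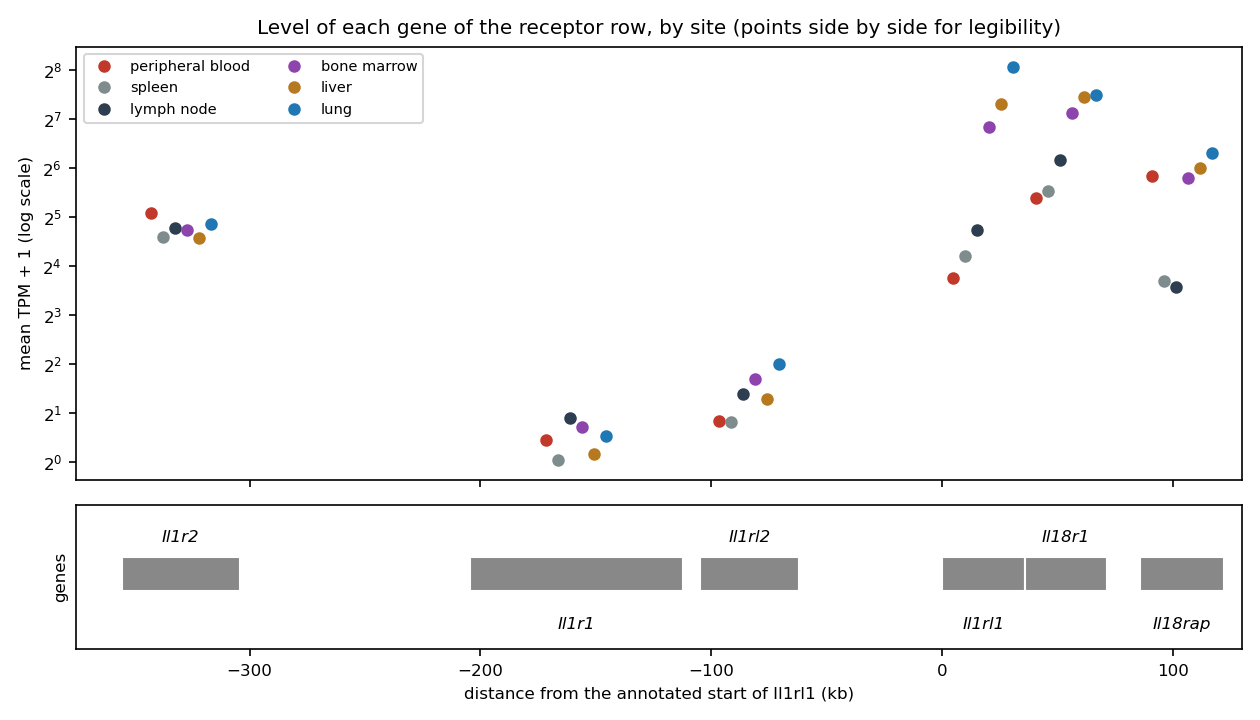
Mean TPM + 1 on a log scale (upper panel, 1 point per site) of the 6 receptor genes in their order on the chromosome, with the genes drawn to scale below by distance from the start of Il1rl1 in kb. The sites spread widely for Il1rl1, Il18r1 and Il18rap at the right, while Il1r2 at the left stays between 22.8 and 32.7 TPM.

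None of the other 3 genes of the row was called among the sites. Il1r2, a decoy receptor for interleukin-1, had site means of 22.8 to 32.7 TPM and was not called among the sites (adjusted p = 0.115). Il1r1, the signalling receptor for interleukin-1, had site means of at most 0.87 TPM and was not tested. Il1rl2, the receptor for interleukin-36, had site means from 0.77 TPM in spleen to 3.01 TPM in lung and was not called (adjusted p = 0.063). At levels this low, the absent call does not tell whether Il1rl2 followed Il1rl1. The plot of the receptor row shows the change in level between Il1rl2 and Il1rl1, which are 62007 bases apart. Gene-level values do not separate the membrane form of ST2 from its soluble form, both of which Il1rl1 encodes, and with 136 bases between Il1rl1 and Il18r1 a transcript that runs from the former into the latter could not be told apart from Il18r1 itself.

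Il1rap (ENSMUSG00000022514, chromosome 16, 26581704 to 26730117, plus strand), the accessory chain without which ST2 does not signal, did not follow its receptor. It stood at 27.59, 24.67 and 25.71 TPM in peripheral blood, and at 4.69, 7.32 and 8.47 TPM in spleen. Lymph node had 9.78, 8.31 and 7.43 TPM and bone marrow 10.30, 8.03 and 8.42 TPM. Liver had 8.19, 7.78 and 5.73 TPM and lung 7.38, 11.16 and 11.26 TPM. The 3 peripheral blood libraries lay above all others, and the remaining 5 sites overlapped each other in the order of their means. Of the 15 pairs, the 5 with peripheral blood were called, with log2 differences from 1.32 over lung (SE 0.21, adjusted p = 8.80e-05) to 1.82 over spleen (SE 0.21, adjusted p = 4.31e-06). The other 10 pairs of sites were not, and without peripheral blood and bone marrow the F test lost its call (adjusted p = 0.355). After the T cell scaling, liver and lung exceeded spleen and lymph node by 0.39 (adjusted p = 0.0378), and 6 of those 10 pairs were called. Lung then exceeded spleen by 0.75 (adjusted p = 0.00659), lymph node by 0.73 (adjusted p = 0.00778) and liver by 0.70 (adjusted p = 0.0106). Bone marrow exceeded spleen by 0.62 (adjusted p = 0.0219), lymph node by 0.60 (adjusted p = 0.0225) and liver by 0.57 (adjusted p = 0.0272). With quantile normalization lung exceeded bone marrow by 0.58 (adjusted p = 0.0359). Myeloid cells are known to express Il1rap, and 9 monocyte and macrophage markers summed to 8078 to 8328 TPM in peripheral blood and to 15.4 to 19.1 TPM in lymph node. They summed to 2902 to 3023 TPM in bone marrow, where Il1rap was at 8.03 to 10.30 TPM. Their part in the peripheral blood level was not tested.

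The balance of the receptor and its accessory chain therefore differed between sites. The ratio of Il1rl1 to Il1rap within a library was 0.416 to 0.523 in peripheral blood, so the accessory chain was the more abundant transcript there. It was 1.66 to 4.06 in spleen and 2.82 to 3.22 in lymph node. It was 11.3 to 14.0 in bone marrow, 18.5 to 23.8 in liver and 22.6 to 39.3 in lung, with lung library 1 at the upper end. Peripheral blood, the pair of lymphoid sites, and the other 3 sites formed 3 ranges that did not overlap.

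**Figure D4:**
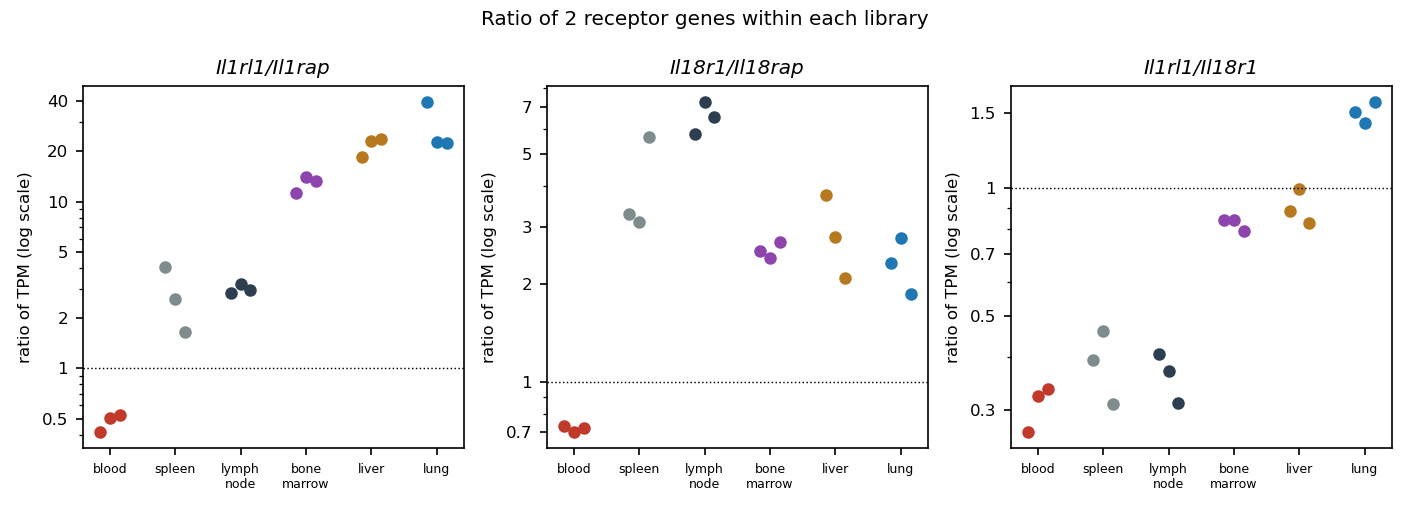
Ratio of TPM within each library (points, log scale) for Il1rl1 over Il1rap, Il18r1 over Il18rap and Il1rl1 over Il18r1 at the 6 sites; the dotted line marks a ratio of 1. In peripheral blood all 3 ratios lie below 1, and the first and the last are highest in lung (means of 28.2 and 1.51), while the middle ratio is highest in lymph node (5.77 to 7.22).

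Il18r1, the ligand-binding chain of the interleukin-18 receptor, stayed closest to Il1rl1. It was at 43.09, 38.62 and 39.85 TPM in peripheral blood, 48.34, 41.18 and 45.23 TPM in spleen, and 68.07, 72.04 and 70.69 TPM in lymph node. Bone marrow had 138.44, 133.83 and 141.38 TPM, liver 171.77, 180.98 and 164.54 TPM, and lung 192.02, 180.03 and 159.71 TPM. The order of sites was that of Il1rl1, though lung and liver overlapped, as did spleen and peripheral blood. The spread was narrower: the mean in lung, 177 ± 16.3 TPM (SD, n = 3), was 4.38 times that in peripheral blood, 40.5 ± 2.31 TPM (SD, n = 3). Liver and lung exceeded the lymphoid pair by 1.62 on the log2 scale (SE 0.06, adjusted p = 2.09e-12). Of the 15 pairs 13 were called, and those not called were peripheral blood against spleen (-0.14, adjusted p = 0.184) and liver against lung (-0.04, adjusted p = 0.787). After the T cell scaling both passed the threshold, with peripheral blood above spleen by 0.72 (adjusted p = 1.2e-05) and lung above liver by 0.37 (adjusted p = 0.00686). With that scaling the steps between liver and bone marrow (-0.02, adjusted p = 0.92) and between lymph node and spleen (0.32, adjusted p = 0.0501) were no longer called. The ratio of Il1rl1 to Il18r1 was 0.267 to 0.461 over the peripheral blood, spleen and lymph node libraries and 1.42 to 1.59 in lung, so lung was the site with more ST2 than interleukin-18 receptor transcript.

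Il18rap, the accessory chain for interleukin-18, left that order in peripheral blood. Its libraries were at 58.66, 54.93 and 55.04 TPM in peripheral blood, 14.72, 13.27 and 8.02 TPM in spleen, and 11.79, 9.98 and 10.84 TPM in lymph node. Bone marrow had 54.93, 55.84 and 52.27 TPM, liver 45.81, 65.14 and 78.68 TPM, and lung 82.92, 65.32 and 85.24 TPM. Spleen and lymph node formed a low group whose highest library, at 14.72 TPM, lay below the lowest of the other 4 sites, at 45.81 TPM, and neighbouring sites within each group overlapped. Liver and lung exceeded spleen and lymph node by 2.52 (SE 0.14, adjusted p = 7.37e-10), and peripheral blood exceeded lymph node by 2.27 (SE 0.20, adjusted p = 1.5e-07). The 8 pairs called were those across the 2 groups. With the T cell scaling peripheral blood was also above liver, by 0.78 (adjusted p = 0.00501), and above bone marrow, by 0.63 (adjusted p = 0.0289), and lung was above liver, by 0.65 (adjusted p = 0.0256). Natural killer and cytotoxic cells are known to carry Il18rap, and 10 of their markers summed to 714 to 760 TPM in peripheral blood, 87.8 to 95.2 TPM in bone marrow and 111 to 139 TPM in lung. Spleen had 124 to 139 TPM. The makeup of the sum differed between spleen and lung. Cd8a and Cd8b1 averaged 12.73 and 22.89 TPM in spleen and 2.273 and 8.053 TPM in lung. Gzma and Klrk1 averaged 24.4 and 5.167 TPM in spleen and 42.22 and 12.68 TPM in lung, where Klrk1 ran from 3.17 to 24.25 TPM. Klrd1 and Prf1 averaged 7.113 and 7.297 TPM in spleen and 8.637 and 8.423 TPM in lung. The others were higher in spleen. Nkg7, Klrb1c, Ncr1 and Eomes averaged 41.44, 4.77, 3.067 and 2.16 TPM in spleen and 39.01, 1.93, 2.56 and 1.82 TPM in lung. The part of natural killer and cytotoxic cells in the Il18rap levels was not tested. The ratio of Il18r1 to Il18rap was 0.703 to 0.735 in peripheral blood and 5.77 to 7.22 in lymph node, with the other 4 sites between 1.87 and 5.64.

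Among the transcription factors, Gata3 (ENSMUSG00000015619, chromosome 2, 9857078 to 9890034, minus strand) ran from a low in peripheral blood to a high in lung. It was at 29.23, 28.19 and 31.06 TPM in peripheral blood, 56.42, 47.38 and 55.11 TPM in spleen, and 54.51, 56.09 and 60.78 TPM in lymph node. Bone marrow had 94.05, 90.45 and 93.16 TPM, liver 110.33, 123.18 and 121.09 TPM, and lung 181.80, 184.94 and 198.88 TPM. Lung, liver, bone marrow and peripheral blood were each separate from the next site in the order, and spleen and lymph node overlapped. The mean in lung, 189 ± 9.09 TPM (SD, n = 3), was 6.39 times that in peripheral blood. Liver and lung exceeded the lymphoid pair by 1.43 (SE 0.06, adjusted p = 1.03e-11), and 14 of 15 pairs were called, all but spleen against lymph node (-0.11, adjusted p = 0.448). With the T cell scaling lung still exceeded liver by 1.01 (adjusted p = 3.22e-07), while liver against bone marrow (0.01, adjusted p = 0.939) and spleen against peripheral blood (-0.04, adjusted p = 0.767) were no longer called. The ratio of Gata3 to Foxp3 was 0.317 to 0.428 in peripheral blood and spleen, 0.228 to 0.253 in lymph node, and 0.602 to 0.906 in the other 3 sites. T helper 2 cells also depend on Gata3. Of their markers, Il4, Il5, Il13, Il9 and Ptgdr2 summed to 3.71 to 4.91 TPM in liver, 0 to 2.03 TPM in lung and at most 6.83 TPM in any library. In lung 4 of the 5, all but Il5, were listed at 0 in all 3 libraries. The part of those cells was not tested.

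Nfil3 (ENSMUSG00000056749, chromosome 13, 52967209 to 52981073, minus strand) split bone marrow from liver and lung. It was at 37.76, 37.43 and 33.81 TPM in peripheral blood, 19.65, 20.78 and 14.83 TPM in spleen, and 18.20, 18.03 and 18.01 TPM in lymph node. Bone marrow had 24.28, 24.59 and 25.16 TPM, liver 71.02, 68.24 and 86.89 TPM, and lung 145.95, 158.77 and 150.15 TPM. Lung lay highest and liver next, with no overlap, whereas bone marrow lay below peripheral blood and close to spleen and lymph node, which overlapped. Liver and lung exceeded spleen and lymph node by 2.49 (SE 0.08, adjusted p = 1.2e-12), lung exceeded liver by 1.01 (SE 0.12, adjusted p = 6.61e-06), and liver exceeded bone marrow by 1.56 (SE 0.12, adjusted p = 4.38e-08). Liver exceeded peripheral blood by 1.03 (adjusted p = 2.92e-06), but by 0.12 after the T cell scaling (adjusted p = 0.449). Bone marrow exceeded spleen by 0.42 (adjusted p = 0.0154), a call lost without spleen library 3 or bone marrow library 3 (adjusted p 0.0799 and 0.0509). It was also lost with abundant RNA classes removed (0.23, adjusted p = 0.207), median ratio scaling (0.28, adjusted p = 0.111), quantile normalization (0.21, adjusted p = 0.23) and a fit of these 2 sites alone (0.42, adjusted p = 0.0544).

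Pparg (ENSMUSG00000000440, chromosome 6, 115360951 to 115490399, plus strand), a lipid-sensing nuclear receptor, was at 12.74 TPM or less in every library. It was at 6.90, 9.52 and 4.89 TPM in peripheral blood, 1.31, 2.12 and 0.69 TPM in spleen, and 0.56 and 0.44 TPM in lymph node, where library 3 was listed at 0. Bone marrow had 3.08, 2.77 and 2.82 TPM, liver 8.94, 8.23 and 10.19 TPM, and lung 10.99, 11.45 and 12.74 TPM. Lung lay above liver without overlap, liver overlapped with peripheral blood, and spleen and lymph node were lowest. Liver and lung exceeded the lymphoid pair by 2.71 (SE 0.18, adjusted p = 7.76e-09) on the log2(TPM + 1) scale, which understates changes of genes this low. Lung against liver was not called (0.33, SE 0.26, adjusted p = 0.348). The calls for bone marrow over spleen (0.76, adjusted p = 0.0449) and spleen over lymph node (0.81, adjusted p = 0.0478) were close to the threshold and were lost in 9 and 12 of the 18 runs that left out 1 library (adjusted p up to 0.196 and 0.215). They were also lost in 6 and 3 of the other settings, among them a fit of the 2 sites alone (adjusted p = 0.0714 and 0.132), and the former fell to 0.42 with quantile normalization (adjusted p = 0.29). Alveolar macrophages are known for Pparg, and all 8 of their markers had a mean above 1 TPM in lung, with a sum of 699 to 801 TPM. In peripheral blood the sum was 315 to 346 TPM. Chil3, Ear2, Siglecf, Marco, Ear1 and Fabp1 averaged 169.9, 147, 7.083, 3.333, 1.44 and 0.09333 TPM there, and Car4 and Krt79 were listed at 0 in all 3 libraries. In liver 6 of the 8, Marco, Car4, Krt79, Fabp1, Siglecf and Ear1, were listed at 0 in all 3 libraries, while Chil3 and Ear2 averaged 4.883 and 1.343 TPM. The 9 general monocyte and macrophage markers summed to 45.3 to 94.7 TPM in liver. In bone marrow the sum of the 8 alveolar macrophage markers was 1180 to 1237 TPM, of which Chil3, a chitinase-like gene, made up 1100 to 1148 TPM. Ear2, Ear1 and Siglecf averaged 53.76, 27.41 and 2.923 TPM there, and Marco, Car4, Krt79 and Fabp1 were listed at 0 in all 3 libraries. The part of macrophages in the Pparg levels was not tested.

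Klrg1 (ENSMUSG00000030114, chromosome 6, 122270596 to 122282882, minus strand) had its highest mean in liver and not in lung. It was at 17.23, 15.96 and 15.29 TPM in peripheral blood, 39.29, 25.60 and 30.72 TPM in spleen, and 22.99, 22.86 and 20.36 TPM in lymph node. Bone marrow had 88.95, 83.81 and 92.32 TPM, liver 91.16, 102.60 and 85.40 TPM, and lung 67.15, 92.01 and 70.78 TPM. Bone marrow, liver and lung overlapped, and each of their libraries lay above each of the other 9. None of the 3 pairs among them was called, with log2 differences of at most 0.29 (adjusted p = 0.138 for liver over lung). Liver and lung exceeded the lymphoid pair by 1.64 (SE 0.10, adjusted p = 2.37e-09). Spleen exceeded lymph node by 0.49 (adjusted p = 0.0298), but this call was lost without any 1 of the lymph node libraries or of spleen libraries 1 and 3 (adjusted p 0.0634 to 0.143) and in a fit of these 2 sites alone (adjusted p = 0.0602). Lymph node exceeded peripheral blood by 0.43 (adjusted p = 0.0269), a call lost without lymph node library 1 or 2 or peripheral blood library 2 or 3 (adjusted p 0.0675 to 0.0862), lost with median ratio scaling (0.19, adjusted p = 0.358), and reversed by the T cell scaling (-0.71, adjusted p = 0.000521). Natural killer and CD8 T cells can carry Klrg1 as well. Their 10 markers summed to 62.6 to 125 TPM in liver, 85.3 to 94.1 TPM in lymph node and, as given above, to 714 to 760 TPM in peripheral blood. In liver most of the sum was Nkg7, a granule protein, at 73.61, 84.63 and 42.48 TPM. Klrk1, Cd8b1, Gzma, Cd8a, Prf1 and Klrb1c averaged 10.61, 7.513, 4.043, 3.143, 3.057 and 1.403 TPM there. Ncr1 and Eomes averaged 0.5567 and 0.21 TPM, and Klrd1 was listed at 0 in all 3 libraries. The part of those cells in the Klrg1 level was not tested.

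Seen by site, bone marrow exceeded lymph node in 7 of the 8 genes (13.7% of all genes tested were higher in bone marrow), all but Il1rap. It did so in all 8 with the T cell scaling (41.9% of all genes tested). Lung exceeded liver in 3, Il1rl1, Gata3 and Nfil3 (17.3% of all genes tested), by log2 differences of 0.78, 0.67 and 1.01, and these 3 calls held in each of the 13 alternatives and in each of the 18 runs that left out 1 library. Lung exceeded liver in 6 of the 8 with the T cell scaling (29.1% of all genes tested), with Il1rap, Il18r1 and Il18rap added. Peripheral blood against lymph node divided the genes evenly. Il1rap, Il18rap, Nfil3 and Pparg were higher in peripheral blood (4 of 8, beside 16.4% of all genes tested), and Il1rl1, Il18r1, Gata3 and Klrg1 were lower (4 of 8, beside 21.0%). With the T cell scaling the 4 higher genes stayed higher, by 2.12 for Nfil3 to 3.41 for Il18rap. Under that scaling none of the 4 lower genes stayed lower, since Il1rl1 was 0.16 higher (adjusted p = 0.331), Il18r1 0.40 higher (adjusted p = 0.00246), Gata3 0.24 higher (adjusted p = 0.0289) and Klrg1 0.71 higher (adjusted p = 0.000521). That scaling put 59.0% of all genes tested higher in peripheral blood and 1.65% lower. The order of liver and lung over spleen and lymph node did not turn under that scaling, as the plot of both sets of differences shows.

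**Figure D5:**
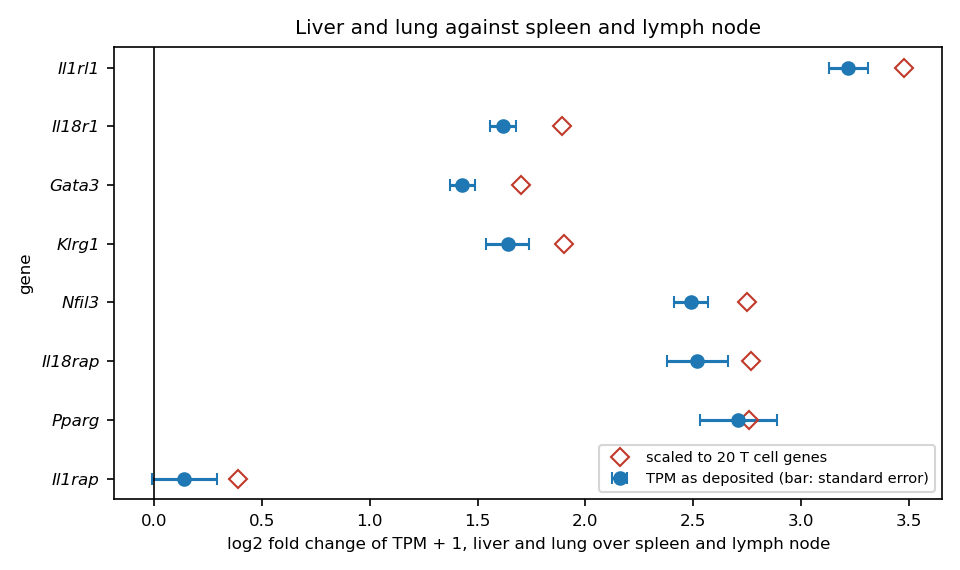
Log2 fold change of TPM + 1 (horizontal axis) of liver and lung over spleen and lymph node for each of the 8 genes; filled points with standard error bars use TPM as deposited, open diamonds the libraries scaled to 20 T cell genes. Values as deposited run from 0.14 for Il1rap to 3.22 for Il1rl1, and the scaled values from 0.39 to 3.48.

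Genes around this axis were taken from 6 lists with 79 genes in all. These lists too were chosen with earlier results of these data known, so their counts are a description and no independent test. Of the ligands and decoys, Il33 itself was at most 0.1 TPM on average at any site and was not tested. Of the 8 tested ligands and decoys, 5 were higher in liver and lung and 0 were lower, beside the 16.3% and 29.3% of all genes tested. Il1b, which encodes the inflammatory cytokine interleukin-1 beta, had its highest mean in peripheral blood, 1580 ± 39.1 TPM (SD, n = 3). It differed by 1.69 between liver and lung and the lymphoid pair (adjusted p = 8.98e-05), although its liver mean, 7.17 ± 4.52 TPM, lay below that of spleen, 22.5 ± 7.86 TPM, and lung stood at 60.1 ± 4.77 TPM (SD, n = 3). Il1rn, the antagonist of the interleukin-1 receptor, differed by 1.32 (adjusted p = 8.11e-05). Its mean was 20.7 ± 4.63 TPM in lung and 0.297 ± 0.159 TPM in liver, below spleen at 2.04 ± 1.30 TPM and lymph node at 0.590 ± 0.330 TPM (SD, n = 3), so lung alone lay above the lymphoid sites. Il36g was at 116 ± 3.85 TPM (SD, n = 3) in peripheral blood and at 1.45 TPM or less in spleen, lymph node, liver and lung, and was not called between those pairs (0.24, adjusted p = 0.238). It was called with quantile normalization (0.44, adjusted p = 0.047) and without lung library 3 (0.37, adjusted p = 0.0377). Myeloid cells are known sources of Il1b and Il1rn, and all 3 genes were highest in peripheral blood, the site with the highest monocyte and macrophage marker sum. The part of those cells was not tested.

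Downstream of ST2, 7 of the 16 signalling genes were higher in liver and lung (16.3% of all genes tested were) and 4 were lower (29.3% of all genes tested were), with a median of 0.15 beside -0.15 for all genes. The counts were 10 and 1 with the T cell scaling, beside 24.1% and 15.6% of all genes tested. Of those counted as higher, Nfkb1 in liver (222 TPM) lay below spleen (236 TPM) and lymph node (283 TPM). Tollip in liver (23.9 TPM) lay below lymph node (25.7 TPM). Map3k8, a kinase that feeds the ERK pathway, was 1.31 higher (SE 0.14, adjusted p = 1.2e-06), with 55.8 ± 14.2 TPM in lung, 28.4 ± 6.72 TPM in liver and 12.5 ± 1.51 TPM in spleen (SD, n = 3). Irak3, which restrains the pathway, differed by 0.73 (adjusted p = 0.000628). Its mean was 18.2 ± 2.17 TPM in lung and 3.82 ± 1.08 TPM in liver, below spleen at 4.55 ± 1.64 TPM and lymph node at 5.12 ± 0.052 TPM (SD, n = 3). Irak4, the kinase that starts the pathway, had a log2 difference of -0.74 (adjusted p = 0.00135). Myd88, the adaptor, had a log2 difference of -0.30 (adjusted p = 0.00404). Among the other receptors of the family, Sigirr, which dampens signalling by this group, differed by -1.11 (SE 0.10, adjusted p = 4.26e-07). Its level was 110 ± 8.92 TPM in spleen, 101 ± 1.49 TPM in lymph node, 86.4 ± 22.4 TPM in liver and 27.9 ± 4.16 TPM in lung (SD, n = 3), so the lung carried most of that difference.

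Of 16 transcription factors linked to tissue Treg cells, 11 were higher in liver and lung and 2 were lower, beside 16.3% and 29.3% of all genes tested, with a median log2 difference of 0.70 beside -0.15 for all genes. The counts became 13 and 0 with the T cell scaling, beside 24.1% and 15.6% of all genes tested. They compare the mean of both organs with that of both lymphoid sites, and not each site. Of those counted as higher, Irf4 in liver (32.6 TPM) and lung (28.4 TPM) lay below lymph node (34.7 TPM). Ikzf2 in lung (128 TPM) lay below lymph node (148 TPM), and Tbx21 in lung (5.61 TPM) lay below spleen (6.94 TPM). Bhlhe40, a stress and activation factor, differed by 3.50 (SE 0.08, adjusted p = 5.5e-15) and Rora, a nuclear receptor that Treg cells of skin are known to use, by 3.21 (SE 0.09, adjusted p = 9.76e-14). Bhlhe40 was at 368 ± 24.1 TPM in liver and 404 ± 36.5 TPM in lung, and at 68.4 ± 6.75 TPM in bone marrow (SD, n = 3). Rora was at 128 ± 11.3 TPM in liver and 152 ± 13.5 TPM in lung, and at 38.1 ± 1.58 TPM in bone marrow (SD, n = 3). In both, bone marrow lay below liver and lung. Nfil3, Pparg, Il1rl1, Gata3 and Il18r1 were also called lower in bone marrow than in liver and in lung. The log2 difference of bone marrow against liver was -1.56 for Nfil3 and -1.38 for Pparg. It was -0.44, -0.35 and -0.32 for Il1rl1, Gata3 and Il18r1. Hif1a, the oxygen-sensing factor, differed by 1.54 (adjusted p = 2.37e-12), with 466 ± 3.52 TPM in lung and 170 ± 21.9 TPM in liver (SD, n = 3).

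Of 20 effector genes of tissue Treg cells, 16 were higher in liver and lung and 3, Penk, Ebi3 and Tgfb1, were lower, beside 16.3% and 29.3% of all genes tested, with a median of 1.18. With the T cell scaling 16 were higher and 2 lower, beside 24.1% and 15.6%. Of those counted as higher, Tnfrsf18 in liver (248 TPM) lay below spleen (295 TPM) and lymph node (287 TPM). Areg, the tissue repair factor amphiregulin, differed by 3.87 (SE 0.13, adjusted p = 1.01e-12), with 157 ± 17.9 TPM in lung, 91.6 ± 9.78 TPM in liver, 12.3 ± 3.32 TPM in bone marrow and 0.473 ± 0.0874 TPM in peripheral blood (SD, n = 3). In lymph node Areg was at 7.92 ± 1.41 TPM (SD, n = 3), so bone marrow, with Il1rl1 at 112.30 TPM or more, lay closer to lymph node than to liver for Areg. Ccr8, a chemokine receptor of tissue Treg cells, differed by 1.13 (adjusted p = 6.21e-07) and had its highest mean in liver, 91.3 ± 15.4 TPM (SD, n = 3). Tnfrsf9 differed by 0.58 (adjusted p = 0.0006), although its liver mean, 62.1 ± 16.5 TPM, lay below those of spleen, 114 ± 8.31 TPM, and lymph node, 101 ± 9.86 TPM, and only lung, at 423 ± 16.5 TPM, lay above them (SD, n = 3).

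Of 12 tested lipid genes linked to Pparg, 7 were higher in liver and lung and 0 were lower, beside 16.3% and 29.3% of all genes tested, with a median of 0.63. These counts were 7 and 0 with the T cell scaling too, beside 24.1% and 15.6%. Of the genes counted as higher, only Dgat1, Cd36 and Fabp4 had a liver mean above both lymphoid sites. The liver mean of Plin2, 25.3 TPM, lay below spleen (30.0 TPM) and lymph node (26.2 TPM). That of Lpl, 0.223 TPM, lay below spleen (0.323 TPM) but above lymph node (0.0767 TPM). Those of Cpt1a (26.5 TPM) and Fabp5 (23.3 TPM) lay above spleen (19.5 and 13.4 TPM) but below lymph node (31.8 and 23.9 TPM). Dgat1, which makes triglyceride from fatty acids, differed by 4.17 (SE 0.06, adjusted p = 2.5e-17). It stood at 1930 ± 55.3 TPM in lung, 458 ± 35.6 TPM in liver and 157 ± 6.81 TPM in bone marrow, against 52.8 ± 2.41 TPM in spleen (SD, n = 3). Lpl, a lipase, differed by 2.68 (adjusted p = 1.13e-09), and its level was 46.3 ± 3.32 TPM in lung and 0.223 ± 0.214 TPM in liver (SD, n = 3). Cd36, a fatty acid receptor, differed by 1.91 (adjusted p = 2.08e-08), with 15.7 ± 0.0416 TPM in lung and 2.64 ± 0.711 TPM in liver (SD, n = 3). In spleen Lpl was at 0.323 ± 0.354 TPM and Cd36 at 2.06 ± 0.470 TPM (SD, n = 3). Lung lay above liver and spleen for both. In peripheral blood Lpl was at 20.1 ± 1.47 TPM and Cd36 at 30.5 ± 2.42 TPM (SD, n = 3), so Cd36 was higher there than in lung. The 8 alveolar macrophage markers summed to 699 to 801 TPM in lung, 315 to 346 TPM in peripheral blood and 1180 to 1237 TPM in bone marrow. The part of macrophages in these levels was not tested.

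The genes whose pattern was most like that of each member were ranked by Pearson's r of log2(TPM + 1) over the 18 libraries, among 9405 genes whose highest site mean reached 10 TPM. Closest to Il1rl1 were Glrx (r = 0.989), Nr1d2 (r = 0.97) and Cenpa (r = 0.967). Glrx, a glutaredoxin, was also the closest to Il18r1 (r = 0.975), before Dock2 and Gapdh, and its site means ran from 59.5 TPM in peripheral blood to 265 TPM in lung. Closest to Gata3 were Clint1, Cenpa and Snhg5, and to Klrg1 Dcun1d4, Gna15 and Atf4. Nfil3 was matched by Snx18 (r = 0.99), P2ry10 (r = 0.99) and Neurl3 (r = 0.987). Il18rap and Pparg had Rgs2, a regulator of G protein signalling, in common (r = 0.974 and 0.937), which was at 379 TPM in peripheral blood, 26.8 TPM in lymph node and 929 TPM in lung. The other close genes were Plk2 and Ccr3 for Il18rap, and Fosl2 and Sik1 for Pparg. Closest to Il1rap were Ldlrad3 (r = 0.935), Slc6a4 and Mef2a, of which Slc6a4, the serotonin transporter that platelets carry, was at 29.3 TPM in peripheral blood and at most 2.36 TPM elsewhere. The summed platelet markers were 2123 to 2170 TPM in peripheral blood and at most 80.8 TPM at the other sites. By Spearman's rho over the same libraries, Fosl2 for Pparg and Mef2a for Il1rap ranked first, and Glrx ranked 20 for Il1rl1.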

How the data were processed

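The authors deposited 1 table of TPM values per library, made with STAR and RSEM on mm10 per the submitters' processing notes; versions and annotation are not given in the sources used here. The sums ran from 999999.27 to 1000000.62. Symbols and coordinates came from GENCODE M21 (GRCm38). The members and all lists were chosen with earlier results of these data known.

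Levels were compared with limma 3.58.1 (R 4.3.3) on log2(TPM + 1), with a pseudocount of 1 TPM, so fold changes of low genes are understated. The 16694 genes whose mean reached 1 TPM at any site entered in 1 fit over 18 libraries (eBayes with trend and robust), with Benjamini-Hochberg adjustment per contrast and a threshold of 0.05. From each list the 3 called genes with at least 10 TPM at 1 site and the widest range of site means were named. Il33, Myd88 and genes named within counts of 5 or fewer were chosen after their values were seen. So were the other genes named because a liver or lung mean lay below a lymphoid site. Some genes of the lists are not reported here by name.

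TPM keeps no depth. The steps between low values of 12062 genes with a single transcript gave the worth of 1 read at 1 kb, from 0.0825 TPM in peripheral blood (the deepest) to 0.377 TPM in liver, with 75.7% to 92.1% of low values within 0.1 of a whole read.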

Additional observations from a re-analysis of the deposited data

How the results depend on the processing

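Over 64 results on single genes, 13 other settings and 18 runs that left out 1 library gave 1931 values. Of these, 1835 kept direction and side of the threshold, 64 lost and 8 gained a call, and 24 turned sign, while 33 results kept both under everything run for them. For all 6 sites, 11348 genes were called, against 7547 without peripheral blood and bone marrow, where fewer samples entered, and Il1rap was the gene of the 8 that lost its call (adjusted p = 0.355). Scaling to the T cell genes cut the genes lower in liver and lung from 4896 to 2603 and raised those higher from 2719 to 4025, and that scaling moves all genes of a library together.

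That scaling also turned these log2 differences: Il1rl1 spleen against peripheral blood (0.44 to -0.39), Il1rap lymph node against liver (0.21 to -0.03), Il18r1 liver against bone marrow (0.32 to -0.02), Il18r1 spleen against peripheral blood (0.14 to -0.72) and Il18rap liver against peripheral blood (0.13 to -0.78). It turned Gata3 lymph node against spleen (0.11 to -0.20), Gata3 spleen against peripheral blood (0.82 to -0.04), Klrg1 liver against bone marrow (0.07 to -0.26), Klrg1 lymph node against peripheral blood (0.43 to -0.71) and Pparg liver against peripheral blood (0.36 to -0.47). Gata3 lymph node against spleen also turned with median ratio scaling (-0.08) and quantile normalization (-0.02). Il1rap bone marrow against lymph node (0.06) turned with abundant RNA classes removed (-0.04) and quantile normalization (-0.22), and Klrg1 bone marrow against lung (0.22) with median ratio scaling (-0.000801). In these cases the cause was not tested.

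Leaving out 1 library gave these ranges for the results that turned, none of which was called in the fit of all libraries: Il1rap bone marrow against lymph node -0.04 to 0.16, Il1rap liver against spleen -0.12 to 0.25, Il18r1 lung against liver -0.02 to 0.11, and Il18rap liver against peripheral blood -0.04 to 0.34. They were -0.06 to 0.34 for Il18rap spleen against lymph node, -0.000929 to 0.13 for Klrg1 liver against bone marrow, and -0.08 to 0.15 for Nfil3 spleen against lymph node.

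The replicate numbers did not pair the libraries: same-numbered libraries of different sites had a mean correlation of deviations of 0.0062 (range -0.0345 to 0.0302 over 45 pairs), and 8 of 18 libraries correlated best with their own number. With the replicate block, 11192 genes were called among the sites, 8 of the 8 genes among them, and 7 of the 8 were higher in liver and lung, with 94 pairwise calls. Depth limits the low Pparg levels. The worth of 1 read at 1 kb was 0.377 TPM in liver and 0.0875 TPM in lymph node, so lymph node levels of 0.44 and 0.56 TPM rest on few reads. With a pseudocount of 0.1 the Pparg call of peripheral blood over bone marrow was lost (1.22, adjusted p = 0.128).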

Other observations

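Other genes of the effector and transcription factor lists were looked at after their values had been seen, and are given as values. Ctla4, an inhibitory receptor by which Treg cells restrain antigen-presenting cells, had the smallest adjusted p of the effector genes between liver and lung and the lymphoid pair (log2 difference 2.27, SE 0.04, adjusted p = 6.78e-16), at 1490 ± 59.7 TPM in lung and 134 ± 6.98 TPM in peripheral blood (SD, n = 3). Icos, a costimulatory receptor, differed by 1.67 (adjusted p = 1.58e-13) and Tigit, an inhibitory receptor, by 1.39 (adjusted p = 1.88e-10). Gzmb, a granule protease, differed by 3.02 (adjusted p = 1.32e-10), with 141 ± 15.5 TPM in lung. Id2, which blocks E proteins, differed by 2.46 (adjusted p = 2.69e-14), with 323 ± 27.2 TPM in lung and 213 ± 7.73 TPM in liver (SD, n = 3).

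Chemokine receptors did not share a single order. Ccr2 had its highest mean in peripheral blood, 355 ± 15.7 TPM (SD, n = 3), where the monocyte and macrophage markers were also highest. Cxcr6 had its highest mean in liver, 115 ± 12.2 TPM, and Ccr4 in lung, 96.5 ± 3.84 TPM (SD, n = 3). Penk, which encodes an opioid peptide precursor, was at 104 ± 9.96 TPM in spleen and 91.7 ± 5.96 TPM in liver, and at 23.2 ± 5.51 TPM in lung (SD, n = 3). Tbx21, the T helper 1 factor, had its highest mean in liver, 23.4 ± 3.87 TPM, against 5.61 ± 2.90 TPM in lung (SD, n = 3).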
